A study of Homo sapiens with 6 samples.

Results

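Genes of fatty acid oxidation and of the peroxisome were followed in ZR-75-1, a line grown from an oestrogen receptor-positive breast cancer, treated with the CDK4/6 inhibitor abemaciclib. The set held 39 genes of the 60656 in the count table, found by matching the Ensembl identifiers of the table to gene symbols. It covers carriers for fatty acid uptake, the carnitine shuttle, the enzymes of mitochondrial and peroxisomal beta-oxidation, proteins of the peroxisome, and the PPAR transcription factors. Parental ZR-75-1 cells were given abemaciclib at 500 nM, or the solvent DMSO as control, and both groups were taken after 4 days in the same serum-containing medium. Each group had 3 RNA-seq libraries, which the methods describe as independent biological replicates. No library carried an RB1 knockout, and all 6 came from a single cell line.

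Beta-oxidation shortens fatty acids by removing acetyl units in a repeated cycle of dehydrogenation, hydration, dehydrogenation and cleavage. Long-chain acids enter mitochondria as carnitine esters, and their electrons pass to the respiratory chain. Peroxisomes run a parallel cycle that handles very long and branched chains and bile acid precursors, and they also make the first steps of ether lipids. PPARs are nuclear receptors that bind fatty acids and switch on many genes of both pathways, with PPARGC1A as a coactivator.

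Libraries held between 3317860 and 4013156 counts on genes. The library kit reads the 3′ end of polyadenylated transcripts, so that gene length does not enter a count. Levels are given as CPM, counts scaled to library size by the TMM method. Values after ± are the SD over the 3 libraries of a group, n = 3, log2FC is the log2 fold change of abemaciclib against DMSO, and SE is its standard error. A count of 0 allows up to 0.748 to 0.904 CPM, depending on the library, which covers counting error only. In bulk RNA, fewer cells of a kind and less RNA per cell cannot be told apart. Among luminal markers, GATA3, FOXA1, KRT8, KRT18, KRT19 and ESR1 were all detected, with a summed level of 6539 to 7106 CPM with DMSO and 7423 to 8527 CPM with abemaciclib. KRT19 made up the largest part of that sum and was higher (log2FC 0.45), as was ESR1 (log2FC 0.83), while KRT18 was lower (log2FC −0.34) and the other 3 did not pass. Of 6 basal and mesenchymal markers, 4 (KRT5, KRT14, TP63 and VIM) had no count in any library, and the list summed to 10.9 to 17.6 CPM across the 6 libraries. Proliferation genes fell with the drug. MKI67, TK1 and CCNA2 summed to 633.9 to 680.6 CPM with DMSO and 23.0 to 26.6 CPM with abemaciclib (CCNA2 overlaps EXOSC9 on the other strand), and the part of this fall in the results that follow was not tested.

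The abemaciclib libraries were compared with the DMSO libraries, to ask how the drug changed these genes. CPT1A, the rate-controlling carnitine acyltransferase of mitochondrial entry, fell 2.53-fold and PPARA fell 2.46-fold. The acyl-CoA synthetase SLC27A2 was also called lower, on 27, 27 and 30 counts against 4, 8 and 3, and was tested only through its DMSO libraries. ABCD3, ACAA1 and SCP2 of the peroxisomal cycle rose to 2.28-fold, 1.87-fold and 1.83-fold of their DMSO level, and the isomerase ECI2 to 1.77-fold. ACOX3, EHHADH and HSD17B4 of that cycle and catalase did not pass. Among the enzymes of the mitochondrial cycle, HADHA was higher and HADH and ETFB were lower. Of the 39 genes, 34 had enough counts for a test. In the quasi-likelihood test of edgeR, with P adjusted over 10863 genes (Benjamini–Hochberg) and a threshold of 0.05, 5 were higher, a share of 14.7% beside 12.5% of all genes tested, and 5 were lower, again 14.7%, beside 13.3%. These shares are near those of all genes tested and are no result about the set. DESeq2 called the same 10 genes. The median log2FC was 0.12 over the 34 genes, against −0.0018 over all genes tested. Every abemaciclib library lay on one side of every DMSO library for 19 of the 34 genes, or 55.9%, beside 39.1% of all genes tested. It lay above for 11 genes, beside 19.1% of all genes tested, and below for 8, beside 20.1%.

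**Figure D1:**
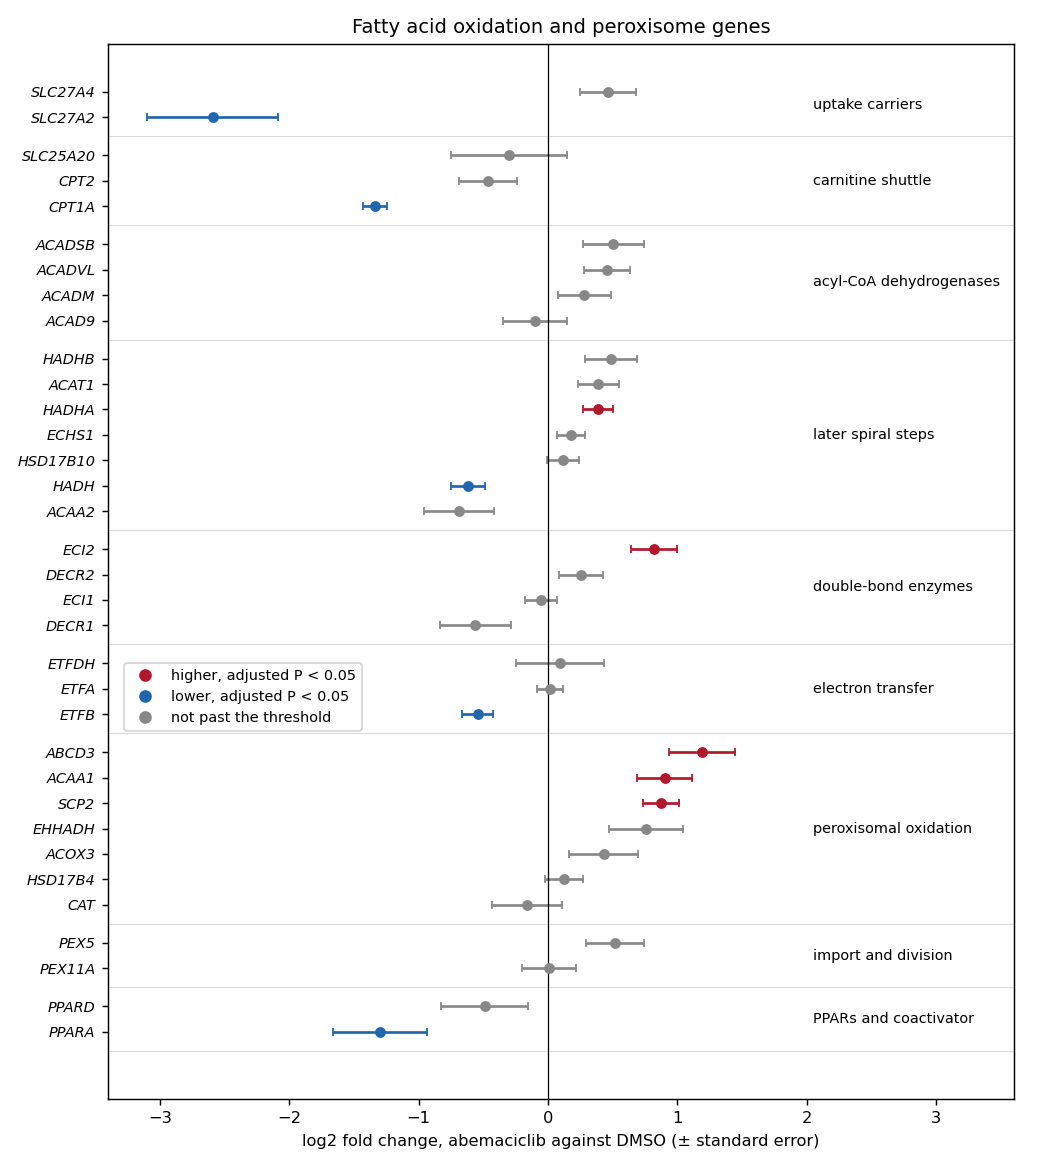
The log2 fold change of abemaciclib against DMSO (x axis, points with bars of 1 standard error) for the 34 tested genes, grouped by role; red points passed the threshold upwards and blue points downwards, and grey points did not pass. ABCD3 at 1.19, ACAA1 at 0.90 and SCP2 at 0.87 sit to the right in the peroxisomal group, while SLC27A2 at −2.59, CPT1A at −1.34 and PPARA at −1.30 sit far to the left.

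The carriers for uptake differed. SLC27A2 is a very long-chain acyl-CoA synthetase of the ER and peroxisome, on chromosome 15 of GRCh38 from 50182196 to 50236385. Its level was 7.83, 8.02 and 9.09 CPM in the DMSO libraries and 1.21, 1.97 and 0.811 CPM in the abemaciclib libraries. All 3 abemaciclib libraries were below all DMSO libraries, but the drug-treated levels rest on 4, 8 and 3 counts. The log2FC was −2.59 (SE 0.51, adjusted P = 0.000273, edgeR). The gene had enough counts for a test only through its DMSO libraries, and under a minimum of 10 counts in every library it was not tested. SLC27A4, a related synthetase with a broader range of substrates, was at 17.5 ± 0.723 CPM with DMSO and 24.1 ± 3.38 CPM with abemaciclib. Its groups did not overlap, yet its log2FC of 0.46 did not pass the threshold (adjusted P = 0.121, edgeR).

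CPT1A carried the clearest change. It attaches carnitine to long-chain acyl groups at the outer mitochondrial membrane, the step that malonyl-CoA inhibits, and lies on chromosome 11 from 68754620 to 68844410. The DMSO libraries had 1051, 976 and 954 CPM, and the abemaciclib libraries had 409, 388 and 384 CPM. The groups were far apart and each was tight. The log2FC was −1.34 (SE 0.09, adjusted P = 2.01e-12, edgeR), and it stayed between −1.37 and −1.30 with each library left out in turn. CPT2, which returns the acyl group to CoA inside the mitochondrion, was at 25.3 ± 2.94 CPM in the DMSO group and 18.3 ± 4.13 CPM in the abemaciclib group. One abemaciclib library overlapped the DMSO range, and the log2FC of −0.46 did not pass (adjusted P = 0.129, edgeR). Exons of CZIB overlap the 3′ end of CPT2 from the other strand, which makes the counts of CPT2 uncertain. SLC25A20, the carnitine–acylcarnitine translocase between these enzymes, was at 5.61 ± 1.66 CPM and 4.51 ± 1.67 CPM. Its log2FC of −0.30 had a 95% interval from −1.22 to 0.62, so that neither a fall nor a rise could be detected at this depth.

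**Figure D2:**
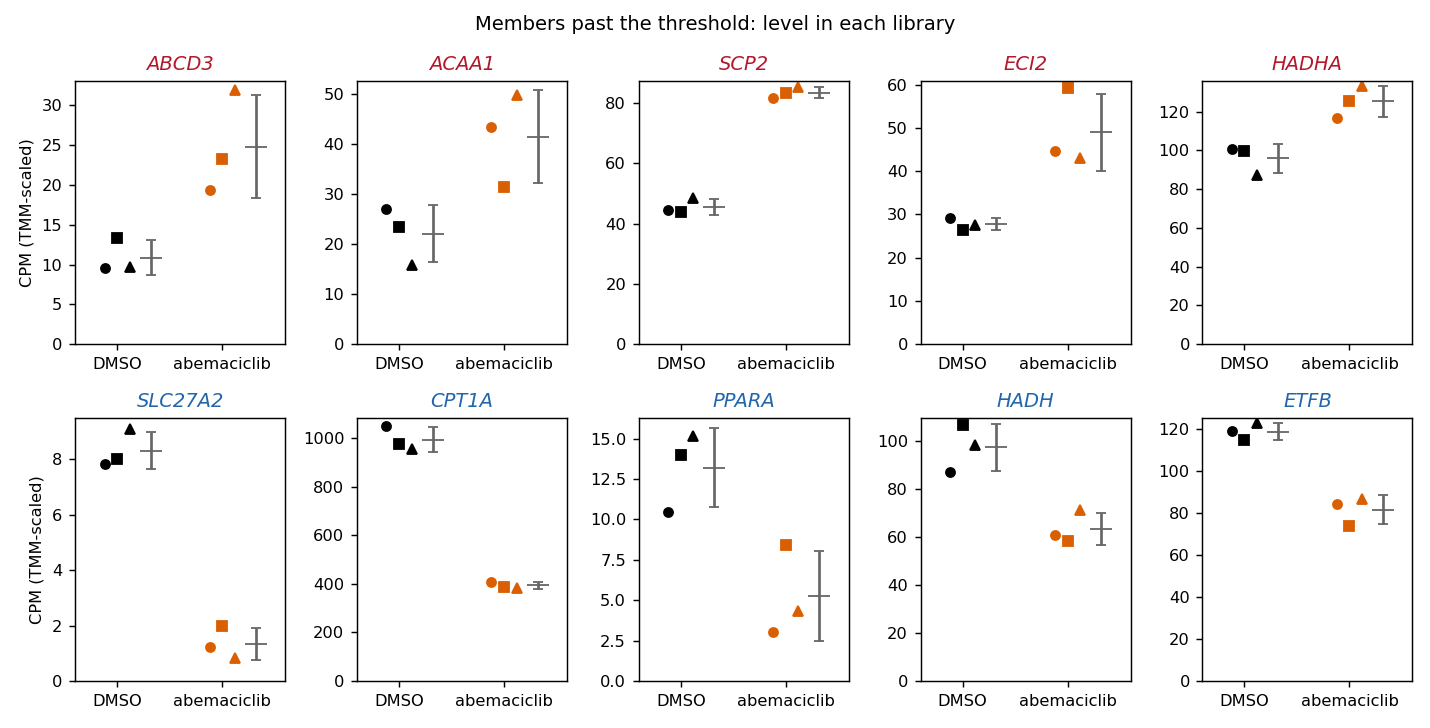
Level in CPM (y axis, each panel from 0) of the 10 genes past the threshold in the 3 DMSO libraries (black) and the 3 abemaciclib libraries (orange), with circles, squares and triangles for replicates 1, 2 and 3 and grey bars for mean ± SD. The groups do not overlap in any panel; CPT1A runs from 954 to 1051 CPM with DMSO and from 384 to 409 CPM with abemaciclib.

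Acyl-CoA dehydrogenases, which make the first oxidation of the mitochondrial cycle, gave no call. Among 6 genes 4 were tested, with 0 higher and 0 lower (edgeR; 2 higher and 0 lower at an unadjusted P under 0.05, and 0 in either direction with DESeq2). ACADVL, which acts on very long chains, had 31.3, 27.3 and 31.2 CPM with DMSO and 45.1, 43.4 and 34.9 CPM with abemaciclib. The groups did not overlap, and the log2FC of 0.46 fell just outside the threshold (adjusted P = 0.0563, edgeR). Without abemaciclib replicate 3 it passed, at 0.56 (adjusted P = 0.0229). ACADM, the medium-chain enzyme, had 22.8 ± 3.61 CPM with DMSO and 27.7 ± 1.78 CPM with abemaciclib, a log2FC of 0.28 (adjusted P = 0.336, edgeR). ACADSB, for short branched chains, and ACAD9, better known as an assembly factor of complex I, had log2FCs of 0.51 and −0.10. Exons of CFAP92 overlap the 3′ end of ACAD9 on the other strand, which leaves its counts uncertain. The short-chain enzyme ACADS and the long-chain enzyme ACADL were close to absent, with 2 counts each over all 6 libraries.

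For the later steps of the mitochondrial cycle 7 genes were tested, with 1 higher and 1 lower. Each is a share of 14.3%, beside 12.5% and 13.3% of all genes tested, and no result about the list. HADHA is the alpha subunit of the trifunctional protein, which hydrates and oxidizes long-chain intermediates, and it lies on chromosome 2 from 26190635 to 26244672. Its level was 101, 99.5 and 87.2 CPM with DMSO and 117, 126 and 133 CPM with abemaciclib, with no overlap. The log2FC was 0.39 (SE 0.12, adjusted P = 0.0139, edgeR), and without DMSO replicate 3 the call was lost, at 0.32 (adjusted P = 0.0819). HADHB, the beta subunit that makes the final cleavage, is encoded next to HADHA in the opposite direction. It had 25.2, 22.6 and 27.3 CPM with DMSO and 33.0, 27.4 and 44.9 CPM with abemaciclib. The 2 groups touched closely without crossing, and the log2FC of 0.49 did not pass (adjusted P = 0.0768, edgeR), though it did without abemaciclib replicate 2 (0.64, adjusted P = 0.0334).

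HADH, the dehydrogenase for medium and short chains, fell. It lies on chromosome 4 from 107989714 to 108035241, and its level was 87.0, 107 and 98.1 CPM with DMSO against 60.8, 58.2 and 71.1 CPM with abemaciclib. All abemaciclib libraries were lower, with a log2FC of −0.62 (SE 0.13, adjusted P = 0.000731, edgeR). ACAA2, the mitochondrial thiolase, had 16.5, 19.6 and 16.4 CPM with DMSO and 13.6, 7.89 and 11.3 CPM with abemaciclib, with no overlap. Its log2FC of −0.68 did not pass (adjusted P = 0.0624, edgeR), and passed without abemaciclib replicate 1 (−0.86, adjusted P = 0.0393). Its counts are uncertain, since the annotated copy ACAA2P1 held 264 counts over the 6 libraries against 296 for the gene itself. ACAA2P1 had 61, 44 and 57 counts with DMSO and 36, 32 and 34 with abemaciclib, a log2FC of −0.78 (adjusted P = 0.0395, edgeR). The hydratase ECHS1, the ketothiolase ACAT1 and HSD17B10, a dehydrogenase that also serves mitochondrial tRNA processing, had log2FCs of 0.18, 0.39 and 0.12. Without abemaciclib replicate 3, ACAT1 passed at 0.46 (adjusted P = 0.0471).

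Auxiliary enzymes move or reduce double bonds so that unsaturated acids can enter the cycle. Of 4 genes tested, 1 was higher (25%, beside 12.5% of all genes tested) and 0 lower (edgeR), a share that rests on 1 gene. At an unadjusted P under 0.05, 1 was lower, and with DESeq2 0 were lower. ECI2, an isomerase found in both peroxisomes and mitochondria, lies on chromosome 6 from 4115693 to 4135597. Its level was 29.3, 26.4 and 27.6 CPM with DMSO and 44.8, 59.2 and 43.0 CPM with abemaciclib. Every treated library was higher, with a log2FC of 0.82 (SE 0.18, adjusted P = 0.000741, edgeR). ECI1, its mitochondrial counterpart, was at 103 ± 8.61 CPM and 99.2 ± 10.7 CPM, and the 95% interval of its log2FC ran from −0.30 to 0.20. Neither reductase passed. The mitochondrial DECR1 had a log2FC of −0.56 (adjusted P = 0.137, edgeR) and the peroxisomal DECR2 one of 0.26 (adjusted P = 0.292, edgeR). DECR1 was at 7.26, 13.6 and 17.8 CPM with abemaciclib, against 19.1, 20.5 and 17.9 CPM with DMSO, and passed without abemaciclib replicate 3 (−0.86, adjusted P = 0.0244).

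The electron transfer flavoprotein collects electrons from the acyl-CoA dehydrogenases. Its beta subunit ETFB, on chromosome 19 from 51345169 to 51366388, had 119, 114 and 123 CPM with DMSO and 84.1, 73.5 and 86.5 CPM with abemaciclib. Both unnamed genes that overlap its 3′ end had 0 counts. ETFB was lower in all 3 treated libraries, with a log2FC of −0.54 (SE 0.12, adjusted P = 0.000909, edgeR). The alpha subunit ETFA, its partner in a dimer, ranged from 234.1 to 284.0 CPM with DMSO and from 252.9 to 265.0 CPM with abemaciclib. The log2FC of ETFA was 0.01, with a 95% interval from −0.19 to 0.22. ETFDH, which hands the electrons to ubiquinone, had 6.66, 9.62 and 22.2 CPM with abemaciclib, a spread that spanned its DMSO range of 10.6 to 14.5 CPM. PPID, transcribed from the other strand, overlaps the 3′ end of ETFDH and held 883 counts against 265, which leaves the ETFDH values uncertain.

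Genes of the peroxisomal cycle and catalase came next. Among these 8 genes 7 were tested, with 3 higher (42.9%, beside 12.5% of all genes tested) and 0 lower (edgeR; 0 lower at an unadjusted P under 0.05 and 0 lower with DESeq2). The median log2FC of the 7 was 0.76. ABCD3, a transporter that brings acyl-CoA into the peroxisome, lies on chromosome 1 from 94418389 to 94518666. Its level was 9.57, 13.4 and 9.69 CPM with DMSO and 19.4, 23.2 and 31.9 CPM with abemaciclib. The log2FC was 1.19 (SE 0.25, adjusted P = 0.000731, edgeR), the largest rise among the 34 tested genes. SCP2, whose longer product is the thiolase for branched chains, lies on chromosome 1 from 52927276 to 53051698. Counts were summed per gene and do not tell its products apart. SCP2 rose from 44.4, 43.7 and 48.5 CPM to 81.7, 83.4 and 85.1 CPM. The treated libraries differed from each other by far less than from the DMSO libraries, and the log2FC was 0.87 (SE 0.14, adjusted P = 1.29e-05, edgeR). ACAA1, the thiolase for straight chains, lies on chromosome 3 from 38103129 to 38137242. It had 27.0, 23.5 and 15.8 CPM with DMSO and 43.3, 31.3 and 49.7 CPM with abemaciclib. Exons of DLEC1 overlap its 3′ end from the other strand, with 0 counts in all 6 libraries. The spread of ACAA1 was wide, but the groups stayed apart, with a log2FC of 0.90 (SE 0.21, adjusted P = 0.00191, edgeR).

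The remaining peroxisomal enzymes did not pass. EHHADH, a bifunctional enzyme of the peroxisomal cycle, had 9.57, 7.43 and 10.0 CPM with DMSO and 18.5, 12.8 and 14.6 CPM with abemaciclib. The groups did not overlap, and its log2FC of 0.76 was close to the threshold (adjusted P = 0.0528, edgeR). Without abemaciclib replicate 2 it passed, at 0.87 (adjusted P = 0.0491). HSD17B4, the other bifunctional enzyme of that cycle, was at 51.1 ± 3.90 CPM and 55.8 ± 6.11 CPM, with a 95% interval of its log2FC from −0.18 to 0.43. ACOX3, an oxidase for branched chains, had a log2FC of 0.43 (adjusted P = 0.253, edgeR). Its relative ACOX2 had 7 counts in one DMSO library, 1 count in one abemaciclib library and none elsewhere. CAT, the catalase that removes the hydrogen peroxide made by the oxidases, had 10.2, 19.9 and 17.9 CPM with DMSO and 12.1, 14.3 and 16.2 CPM with abemaciclib. Its groups overlapped fully, and the log2FC was −0.16 (95% interval −0.72 to 0.39).

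PEX5 is the receptor that carries proteins with a C-terminal signal into the peroxisome. It had 15.1, 19.9 and 17.3 CPM with DMSO and 19.4, 29.6 and 25.7 CPM with abemaciclib. Its groups overlapped by 1 library, with a log2FC of 0.52 (adjusted P = 0.0904, edgeR), and without abemaciclib replicate 1 it passed at 0.67 (adjusted P = 0.0398). PEX11A, which promotes peroxisome division and is a PPAR target in liver, was at 21.7 ± 1.20 CPM and 21.8 ± 2.33 CPM. The 95% interval of its log2FC ran from −0.42 to 0.44.

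Among the regulators, PPARA fell. It encodes the receptor best known for inducing fatty acid oxidation in liver during fasting, and lies on chromosome 22 from 46150521 to 46243755. Its level was 10.4, 14.0 and 15.1 CPM with DMSO and 3.03, 8.39 and 4.32 CPM with abemaciclib. The treated libraries varied among themselves but all lay below the DMSO libraries, with a log2FC of −1.30 (SE 0.37, adjusted P = 0.00876, edgeR). With each library left out in turn it ranged from −1.82 to −1.04. PPARD, the more widely expressed receptor, had 10.2, 12.2 and 8.78 CPM with DMSO and 8.77, 6.17 and 7.30 CPM with abemaciclib. Its groups met almost at one value, and the log2FC of −0.49 did not pass (adjusted P = 0.311, edgeR). PPARG, the receptor of fat cells, had 3 counts in one library of each group, and PPARGC1A had none in any library.

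Sequences in front of 5 genes that changed are shown so that their proximal promoters can be compared. ABCD3, SCP2 and ECI2 rose, and SLC27A2 and PPARA fell. Each run is the 250 bases before the gene start in RefSeq on GRCh38.p14, written 5′ to 3′ on the strand of the gene, and capitals mark CCAAT. The windows are chr1:94418139-94418388 on the plus strand for ABCD3, chr1:52927026-52927275 on the plus strand for SCP2 and chr6:4135576-4135825 on the minus strand for ECI2. For SLC27A2 and PPARA they are chr15:50181946-50182195 and chr22:46150276-46150525, both on the plus strand.
ABCD3: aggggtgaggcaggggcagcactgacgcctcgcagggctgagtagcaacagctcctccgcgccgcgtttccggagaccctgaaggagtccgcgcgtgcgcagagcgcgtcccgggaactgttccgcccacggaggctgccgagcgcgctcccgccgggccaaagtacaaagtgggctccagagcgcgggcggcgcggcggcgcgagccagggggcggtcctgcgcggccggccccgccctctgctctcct
SCP2: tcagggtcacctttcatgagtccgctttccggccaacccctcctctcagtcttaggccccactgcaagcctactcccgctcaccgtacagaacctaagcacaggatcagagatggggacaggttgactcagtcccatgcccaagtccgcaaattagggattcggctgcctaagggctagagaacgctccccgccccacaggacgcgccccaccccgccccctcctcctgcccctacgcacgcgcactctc
ECI2: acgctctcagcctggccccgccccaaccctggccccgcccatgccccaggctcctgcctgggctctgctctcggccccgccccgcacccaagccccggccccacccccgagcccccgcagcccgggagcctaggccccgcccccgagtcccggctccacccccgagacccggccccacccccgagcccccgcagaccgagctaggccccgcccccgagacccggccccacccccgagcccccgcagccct
SLC27A2: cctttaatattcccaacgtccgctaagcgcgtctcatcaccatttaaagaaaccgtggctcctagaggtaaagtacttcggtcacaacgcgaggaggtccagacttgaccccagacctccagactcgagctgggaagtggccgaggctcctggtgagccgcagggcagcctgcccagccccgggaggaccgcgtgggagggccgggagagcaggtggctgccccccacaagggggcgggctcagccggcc
PPARA: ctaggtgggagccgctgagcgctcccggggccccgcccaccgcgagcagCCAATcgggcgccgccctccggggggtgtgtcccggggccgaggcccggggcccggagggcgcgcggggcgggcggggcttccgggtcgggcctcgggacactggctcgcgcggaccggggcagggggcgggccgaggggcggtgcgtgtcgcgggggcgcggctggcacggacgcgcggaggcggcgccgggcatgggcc

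The GC content of these windows ran from 62.4% for SCP2 and 64.4% for SLC27A2 to 81.6% for ECI2 and 84.4% for PPARA. Windows were available for 9 of the called genes. Those not shown had 44.4% (CPT1A), 47.6% (ETFB), 68.8% (HADHA) and 74.4% (HADH), so the 5 shown do not give the full range. Motifs were searched on both strands in the windows of the 33 genes of the set for which a RefSeq promoter window was available here. They were also searched in 35116 windows of the same length. CCAAT occurred in 7 of the 33, namely HADH, PPARA, PPARD, CAT, ACAT1, ETFA and HSD17B10, beside 32% of all windows. The E-box CACGTG was in 2 (ACAD9 and PPARGC1A), beside 6.34% of all windows, and the E2F letters TTTCCCGC were in 1 (CPT2), beside 1.39%. The other E2F form TTTGGCGC, found in 0.55% of all windows, was in none of the 33. The DR1 consensus bound by PPARs, the ERR element TNAAGGTCA and the palindromic oestrogen response element occurred in 0.0171%, 0.854% and 0.0399% of all windows and likewise in none of the 33.

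Summed over the 39 genes, the level was 2500.2, 2535 and 2469 CPM with DMSO and 2022, 2033 and 2015 CPM with abemaciclib. CPT1A made up 38.5% to 42.1% of the counts of the set with DMSO and 19.1% to 20.2% with abemaciclib. Without CPT1A the order of the groups turned, with 1449 to 1560 CPM against 1613 to 1645 CPM. The peroxisomal cycle with catalase summed to 158.9, 174.7 and 169.3 CPM with DMSO and to 252.0, 226.2 and 277.5 CPM with abemaciclib. The acyl-CoA dehydrogenases went from 85.8 to 90.6 CPM up to 105.6 to 112.3 CPM, without overlap, although no gene of that group was called. The PPARs went from 20.6 to 27.0 CPM down to 11.6 to 15.3 CPM.

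**Figure D3:**
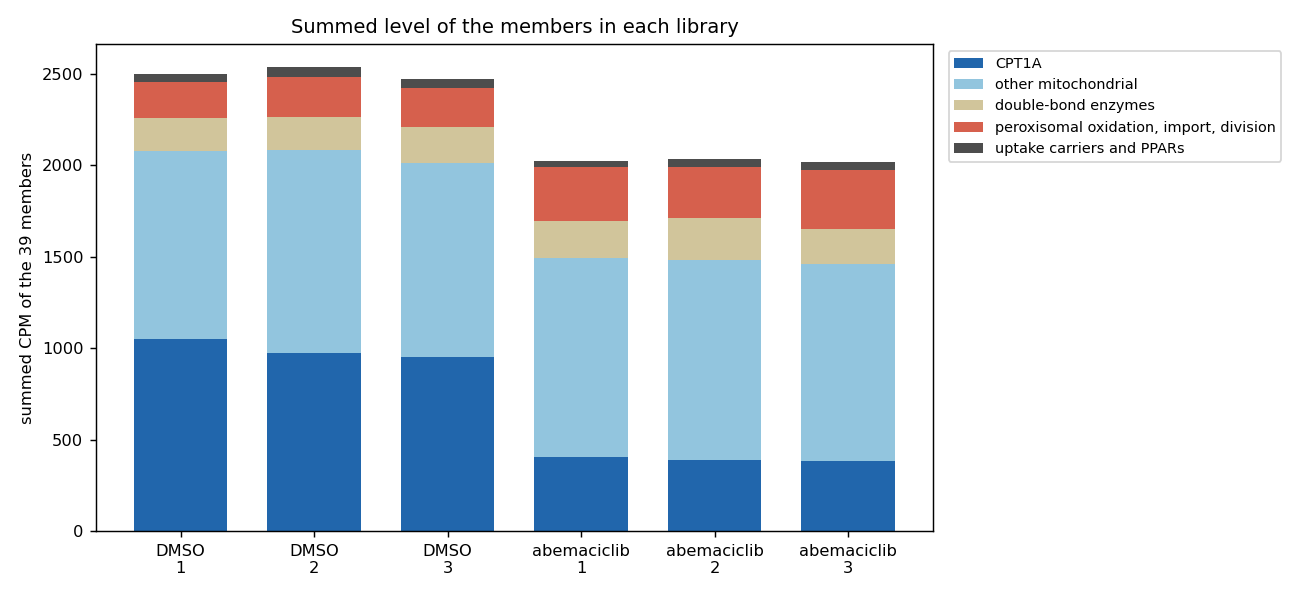
Summed CPM of the 39 genes (y axis, from 0) in each of the 6 libraries, stacked by role. The CPT1A share shrinks from 954 to 1051 CPM with DMSO to 384 to 409 CPM with abemaciclib, while the peroxisomal part (red) widens.

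The other genes of the pathway, 93 on lists drawn up from general knowledge but with earlier results of these data known, were read in the same fit, so their shares are a description. Of these, 64 were tested, and 12 were higher, a share of 18.8%, and 3 were lower, a share of 4.69%, beside 12.5% and 13.3% of all genes tested. Their median log2FC was 0.28. Without abemaciclib replicate 1, 6 were lower.

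Peroxisomal enzymes and membrane proteins outside the set gave 7 of the 12 higher calls and none of the 3 lower ones, with 7 of 18 tested higher (beside 12.5% of all genes tested) and 0 lower (edgeR; 2 lower at an unadjusted P under 0.05, and 6 higher and 0 lower with DESeq2). ACOT4, a peroxisomal acyl-CoA thioesterase, rose from 5.85 ± 0.870 CPM to 13.7 ± 1.21 CPM, a log2FC of 1.23 (adjusted P = 0.00479, edgeR). AGPS, which makes the ether bond of plasmalogens, rose by 1.06 on the log2 scale (adjusted P = 0.00197, edgeR). The membrane protein PXMP4 rose by 0.88 (adjusted P = 4.6e-06, edgeR). PRDX5, IDH1 and LONP2, named after their values were seen, had log2FCs of 0.35, 0.41 and 0.36 and were each lost without one or more single libraries. Without DMSO replicate 2 or abemaciclib replicate 2, all these 3 calls were lost and 4 genes of the list were higher. The median log2FC of the 18 was 0.27, and 8 were negative. All abemaciclib libraries lay above all DMSO libraries for 8 genes and below for 3, ACOT8, PXMP2 and TYSND1. These 3 were not called, with log2FCs of −0.72 (adjusted P = 0.0559, edgeR), −0.57 and −0.48. With single libraries left out, 0 to 1 genes were lower, and ACOT8 reached an adjusted P of 0.0369 (edgeR). SNX21, on the other strand, overlaps the 3′ end of ACOT8, whose counts are uncertain.

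Among the peroxins, which build the peroxisome, 2 of 14 tested were higher (14.3%, near the 12.5% of all genes tested, and no result about the list) and 0 lower (edgeR; 0 lower at an unadjusted P under 0.05 and 0 lower with DESeq2). PEX19, the chaperone for peroxisomal membrane proteins, went from 55.6 ± 1.92 CPM to 81.0 ± 6.16 CPM, a log2FC of 0.54 (adjusted P = 0.00287, edgeR).

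Outside the peroxisome, 2 genes of lipid droplets fell. PLIN2, a lipid droplet coat protein and PPAR target, fell from 28.1 ± 1.24 CPM to 4.09 ± 2.12 CPM, a log2FC of −2.77 (adjusted P = 3.65e-08, edgeR). Its counts were 96, 99 and 89 with DMSO and 11, 10 and 24 with abemaciclib. The abemaciclib libraries alone would not have brought PLIN2 past the filter on low counts. Among 8 tested PPAR partners and targets, 1 was higher and 1, PLIN2, was lower. LIPE, the hormone-sensitive lipase, was the only call among 6 tested genes of lipolysis, with a log2FC of −2.22 (adjusted P = 2.97e-05, edgeR). It had 39, 61 and 81 counts with DMSO and 19, 12 and 11 with abemaciclib, and likewise passed the filter only with its DMSO libraries. The antisense gene LIPE-AS1 overlaps its 3′ end and held 34 counts against 223, so the counts of LIPE are uncertain. In fatty acid activation, SLC27A3 fell by 1.19 on the log2 scale and ACSL3 rose by 0.43, among 6 tested. IVD, which breaks down a leucine product with the same electron acceptor, rose by 1.21 (adjusted P = 5.42e-08, edgeR), the only call among 7 further acyl-CoA enzymes. Each single call in these lists was a share of 12.5% to 16.7%, near the 12.5% higher and 13.3% lower of all genes tested. Such shares are no result about a list. Carnitine handling and malonyl-CoA control gave 0 calls among 5 tested (edgeR; 0 at an unadjusted P under 0.05 and 0 with DESeq2). The median log2FC of the 5 was 0.78, and 4 were positive. Standard errors in this list ran up to 0.54 on the log2 scale, so that 0 calls do not show it to be unchanged.

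**Figure D4:**
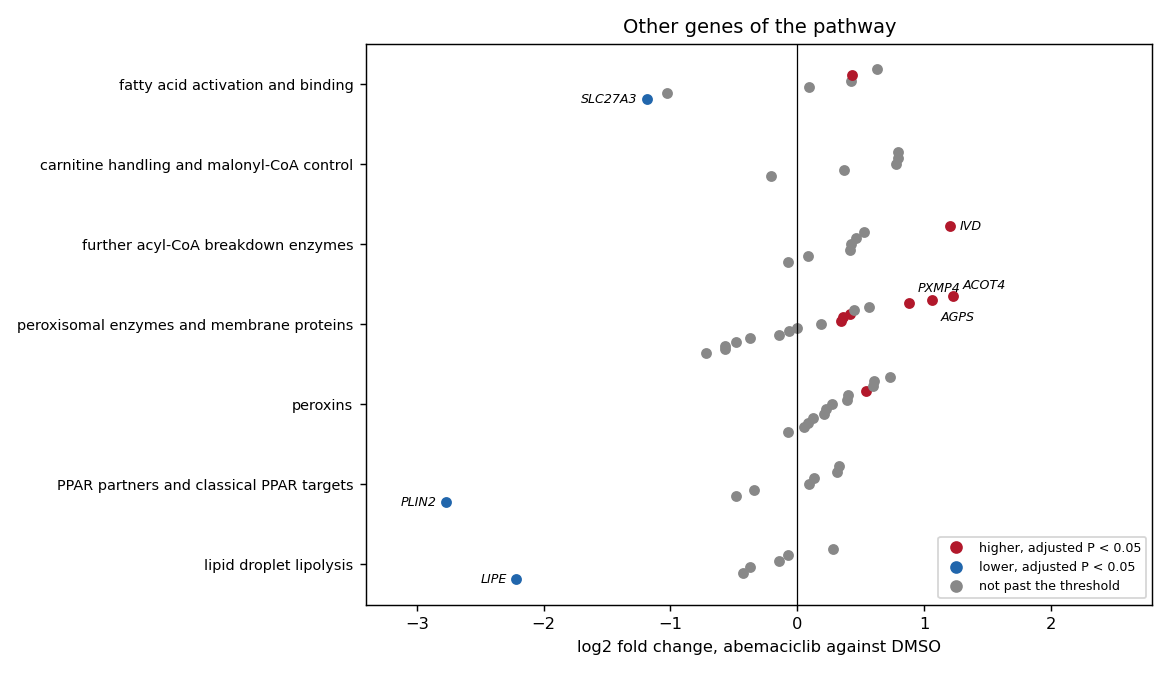
The log2 fold change of abemaciclib against DMSO (x axis) for 61 of the 64 tested other genes of the pathway, 1 row of points per list; red points passed the threshold upwards and blue points downwards, and called genes with a change above 0.7 in size are named. Red points gather in the row of peroxisomal enzymes, with ACOT4 at 1.23, and PLIN2 at −2.77 lies farthest to the left.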

How the data were processed

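The 6 RNA-seq libraries of parental ZR-75-1 cells, 3 per treatment, were grouped by their labels. Reads were trimmed by the authors using BBDuk, then mapped to hg38 (STAR 2.7.5b) and summed per gene (featureCounts 2.0.1). Deposited values are raw counts, with neither normalization nor a filter. The strand setting of the counting was not given in the sources used here, so genes whose last 500 transcribed bases overlap exons of a gene with counts on the other strand are called uncertain, and an overlap with a gene at 0 counts is stated for the called genes. Symbols were matched by identifier for 60401 of 60656 genes. Coordinates are from GENCODE release 44, on the same assembly.

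Tests used edgeR 4.0.16 under R 4.3.3, with filterByExpr, TMM scaling, glmQLFit and glmQLFTest, with Benjamini–Hochberg adjustment over 10863 genes and a threshold of 0.05. The standard error is the log2 fold change divided by the square root of F, and 95% intervals use the degrees of freedom of that fit. Alternatives were DESeq2 1.42.0, its size factors, total counts, other filters, a replicate block and each library left out. The genes and lists were chosen with earlier results of these data known. Genes past the threshold and those heading a role are given in full, and in each other list the 3 largest calls per direction are named, except that some genes of these lists are counted but not reported here. The labels and the methods name different versions of the 3′ library kit (RW and FW). The test was checked on simulated counts. Protein sequences were not used here.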

Additional observations from a re-analysis of the deposited data

How the results depend on the processing

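Over all alternatives, 89 of 96 summary values stayed within bounds (a count within 1.5 times its value, a median within the SD of the medians of the abemaciclib libraries) and 7 moved. Of 407 values of single genes of the set, 399 kept their side of the threshold, 1 lost its call and 7 gained one. No called gene changed direction. Changes of direction in genes without a call were not counted. They occurred, for example in ETFDH (−0.55 to 0.39 with single libraries left out) and CAT (−0.41 to 0.02). The 10 called genes were the same 10 under DESeq2, its size factors in edgeR, total counts only, no filter on low counts and the replicate block. With at least 10 counts in every library SLC27A2 was not tested and the other 9 remained. Leaving out single libraries gave 4 to 7 genes of the set higher and 5 to 6 lower, with a median log2 fold change of 0.10 to 0.17. For the other pathway genes, these fits gave 9 to 12 higher, 3 to 6 lower and a median of 0.20 to 0.28. That median was 0.32 with no filter on low counts and 0.24 under the minimum of 10 counts, settings that change which genes of the list were tested. The DMSO and abemaciclib libraries with the same replicate number did not deviate together (correlations of −0.043, 0.007 and −0.089 across genes), so the numbers were not taken to pair them. With the replicate block, 5 genes of the set were higher and 5 lower, and 1139 genes were higher and 1280 lower in all, against 1354 and 1442 without it. Standard errors ran up to 0.51 on the log2 scale in genes with few counts, so that changes of less than that size could not be seen in them.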
